A study of Mus musculus with 6 samples.

Results

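Histone genes were examined in the polyadenylated RNA of mouse pre-B cells at 3 stages of Myc-driven lymphoma. The members were chosen by symbol in the GENCODE vM1 annotation, as genes whose symbol starts with Hist1h, Hist2h, Hist3h, Hist4h, H2af, H3f3 or H1f and that were listed in the count files. This gave 89 of 37991 genes. Of these, 70 are clustered genes (the Hist symbols) and 19 are replacement genes (the H2af, H3f3 and H1f symbols), and 10 of the 89 are annotated as pseudogenes.

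All mice were of the C57BL/6 strain, and the cells were sorted from bone marrow. The labels give the sort as B220 high, IgM low and IgD low for every stage, whereas the study's methods keep that gate for wild type and premalignant cells and describe the malignant cells as positive for B220 and negative for IgM and IgD. Wild type mice, aged 4 to 6 weeks, carried no transgene. Premalignant Eμ-Myc mice had the same age, and malignant Eμ-Myc mice were taken at 10 to 20 weeks, when lymphoma had arisen spontaneously. The transgene is heterozygous and places Myc under the immunoglobulin heavy chain enhancer, which is active in B-lineage cells, so it drives Myc in a lineage and not in every cell. Per the study's methods, wild type and premalignant cells came from females and malignant cells from mice of both sexes. Malignant samples thus differed from the others in age, sex make-up and, by the methods, gate, which cannot be told apart from stage. Each stage has 2 libraries, and the study describes its biological replicates as individual animals.

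Histones package DNA into nucleosomes, with H2A, H2B, H3 and H4 in the core and H1 as the linker. Clustered histone genes are transcribed in S phase, lack introns, and give mRNAs that end in a conserved stem-loop instead of a poly(A) tail. The stem-loop is bound by SLBP (gene Slbp), the mRNA is cut just after it, and this ending lets the mRNA be removed when DNA replication stops. Replacement genes are transcribed outside S phase as well, usually hold introns, and give polyadenylated mRNA. A library made from polyadenylated RNA therefore captures clustered histone mRNA mainly where a poly(A) tail has been added downstream of the stem-loop.

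The stem-loop letters are shown because they separate the classes. The pattern searched was GG, any 2 letters, CTTTT, any letter, AG, any 2 letters and CC, 16 letters in all, in the 200 bases after the stop codon on the coding strand of NCBIM37 (mm9). It was found in 58 of 67 clustered genes with an annotated stop codon (86.6%), in 1 of 12 such replacement genes, and in 4 of 21812 other protein-coding genes (0.0183%). The search began at the last annotated stop codon of any transcript of a gene. Hist1h2bp, Hist1h2bq, Hist1h2br and Hist2h2bb, without a match there, held the letters elsewhere in the gene span or up to 200 bases past it. The variants, with the stem in capitals and the loop in lower case, were as follows.
Hist1h1c and 35 other clustered genes: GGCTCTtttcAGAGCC
Hist1h3c and 8 other clustered genes: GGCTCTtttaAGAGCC
Hist2h2ac: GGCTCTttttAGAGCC
Hist1h4c and 7 other clustered genes: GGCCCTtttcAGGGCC
Hist1h4i and Hist2h4: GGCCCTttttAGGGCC
Hist1h4b and Hist1h4j: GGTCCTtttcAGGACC
H2afx, the only replacement gene: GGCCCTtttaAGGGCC

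The Hist1h1c copy lies at chr13:23831381-23831396 on the plus strand, starts 25 bases after the stop codon, and is followed by 839 annotated bases of the same gene. For Hist1h4i it lies at chr13:22132835-22132850 on the minus strand, 31 bases after the stop codon and before 150 annotated bases. For H2afx, whose product is phosphorylated at DNA breaks, it lies at chr9:44143323-44143338 on the plus strand, 47 bases after the stop codon and before 816 annotated bases. These positions are within the last exon, after the coding sequence. Hist2h2be, with 2192 annotated bases after its stop codon, held no match in the 200 bases searched, which says only that these letters are not in that window.

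Motifs of the promoter were read in the window from 250 bases before to 50 bases after the annotated start, on both strands. CCAAT was present in 85.1% of 67 protein-coding clustered genes and in 38.0% of 22337 protein-coding genes. TATAAA was present in 56.7% against 13.4%. The octamer ATTTGCAT was present in 22.4% against 1.72%, in 7 of 19 clustered H2A genes and 8 of 18 clustered H2B genes and in none of the protein-coding clustered H1, H3 or H4 genes or of the 12 protein-coding replacement genes. CCAAT was in the promoter of every protein-coding clustered H1, H2A and H2B gene and in 4 of 13 H4 promoters.

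Histone genes exist in near-identical copies, which limits what 50-base reads can be assigned to. The share of each gene's 50-base exon windows that occurred once in the genome and touched no exon of another gene had a median of 47.7% over the 70 clustered genes and of 93.1% over the 19 replacement genes. It was 0 for 7 clustered genes (Hist1h2ao, Hist1h2ap, Hist1h2bq, Hist1h2br, Hist2h2aa1, Hist2h2aa2 and Hist2h2ab). Of the 10 members without a count in any library, 5 belonged to these 7, so their listing at 0 says nothing of their expression. Counts of genes such as Hist1h4i (59.8% assignable), Hist1h2bg (50.3%), H2afz (59.4%) and H3f3a (68.9%) may be incomplete or shared with copies, and Hist3h2a overlaps exons of Trim17.

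**Figure D1:**
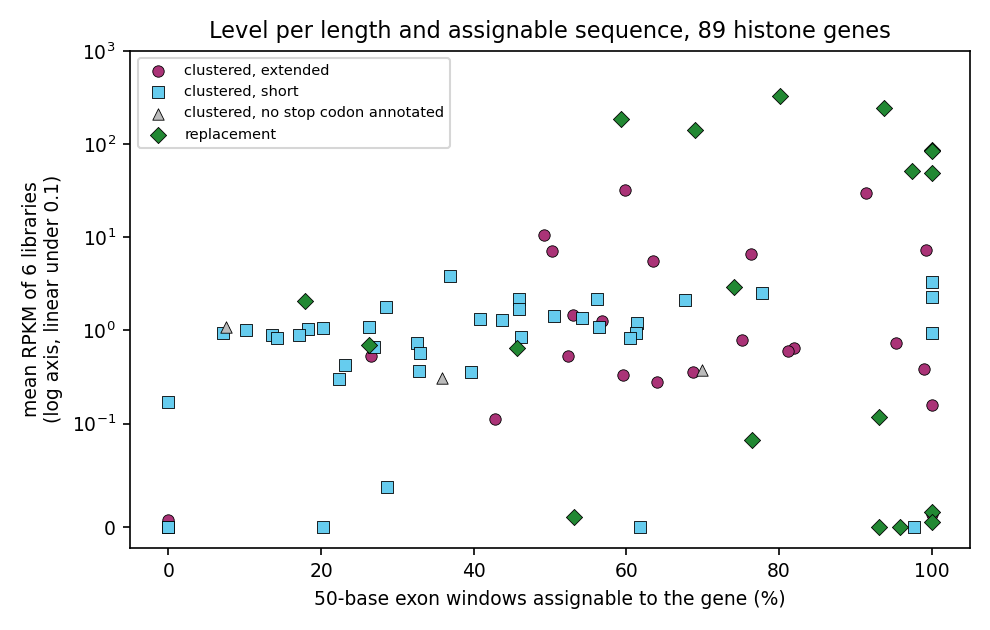
Mean RPKM of the 6 libraries (vertical axis, logarithmic and linear under 0.1) against the percentage of 50-base exon windows assignable to the gene (horizontal axis) for the 89 histone genes, 1 point per gene. Replacement genes reach 324.8 RPKM, extended clustered genes 32.4 RPKM and short clustered genes 3.82 RPKM, and the 7 genes at 0% assignable windows lie at the bottom left.

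Total counts lay between 30031100 and 53453055 per library and were higher in replicate 1 of every stage, and 3 counts, taken as the floor of detection, correspond to 0.0526 to 0.108 CPM. CPM, the count scaled to the size of the library, is given here on library sizes scaled by TMM, a normalization that takes most genes as unchanged. Myc, the gene the transgene carries, had 33.8 and 41.4 CPM in the wild type libraries, 1164 and 1155 CPM in the premalignant ones and 1732 and 1578 CPM in the malignant ones. All 9 B-lineage markers were detected in every library. Of these 9, 8 were called lower in each transgenic stage than in wild type, as were 10 of 10 myeloid and 8 of 10 erythroid markers. Of 8 T and NK markers, 5 were called lower in premalignant and 6 in malignant cells, and of 4 plasma cell markers 3 in each. Of all genes, 20.3% were called lower in premalignant and 24.3% in malignant cells. The summed level of 10 myeloid markers was 1230.0 and 2803 CPM in wild type, 377 and 402 CPM in premalignant and 90.0 and 172 CPM in malignant libraries, and the summed level of 10 erythroid markers was 439 and 1670.0, 104 and 218, and 73.4 and 89.9 CPM. No myeloid or erythroid marker was at 0 in any library. The part of these cells in the histone results was not tested. In bulk RNA, fewer cells of a type and less RNA per cell cannot be told apart.

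Nearly all histone reads came from replacement genes. Clustered genes gave 4.15% of the histone counts in wild type replicate 1 (95% Wilson interval 4.06 to 4.24%) and 8.94% in wild type replicate 2 (8.79 to 9.10%), 2.96% and 2.68% in the premalignant libraries, and 3.48% and 3.91% in the malignant libraries. Such intervals cover counting error only. Over all 6 libraries the mean level per length had a median of 0.838 RPKM (counts scaled to exon length and to the library's total count) in the clustered genes and 2.06 RPKM in the replacement genes. The 5 clustered genes that averaged 5 CPM or more, Hist1h1c, Hist2h2be, Hist1h4i, Hist3h2a and Hist1h2bc, all had more than 100 annotated bases after the stop codon. Clustered genes with that feature are called extended here. They number 26, against 41 short ones and 3 without an annotated stop codon. CPM and counts are not divided by length. Per length the median was lower in the extended genes, 0.568 RPKM against 0.945 RPKM in the short ones, with medians of 61.7% and 37.0% assignable windows. Extended genes supplied 81.6% and 90.6% of the clustered counts in wild type, 78.2% and 82.4% in premalignant and 80.8% and 71.0% in malignant libraries.

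Of all the histone genes, H3f3b had the highest mean level, both in CPM and per length. H3f3a and H3f3b encode the same H3 protein, which is deposited outside replication by the HIRA and ATRX-DAXX chaperones. H3f3b had 1008 and 1518 CPM in wild type, 690.0 and 904 CPM in premalignant and 802 and 743 CPM in malignant libraries. The groups did not overlap between wild type and either other stage. H3f3b fell in premalignant vs. wild type cells, with a log2 fold change of -0.66 (SE 0.24, FDR 0.0829 by edgeR's quasi-likelihood test over all genes tested), and in malignant vs. wild type cells, with -0.71 (SE 0.24, FDR 0.0563, edgeR). Genes counted as called where the FDR was 0.1 or less and the log2 fold change was 0.5 or more in either direction. With 2 biological replicates a stage, p-values rest on the spread between few libraries, and the 3 comparisons share their libraries. Without wild type replicate 2, the values were -0.34 and -0.38 with FDR of 0.392 and 0.286 (edgeR), so both calls rest on that library. The first call was also lost without either premalignant library (-0.47 and -0.86), and the second with only the 2 stages compared in the fit (-0.71).

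H3f3a had 651 and 550 CPM in wild type, 448 and 467 CPM in premalignant and 535 and 303 CPM in malignant libraries. Its log2 fold changes of -0.39 in premalignant vs. wild type and -0.52 in malignant vs. wild type cells did not pass the test (edgeR FDR 0.31 and 0.171). The second passed with upper-quartile scaling, with both other filters and without malignant replicate 1, where it was -0.98 (FDR 0.00312, edgeR). The 2 malignant libraries differed from each other by more than the 2 libraries of either other stage. H3f3b gave 60.8% and 73.4% of the counts of this pair in wild type, 60.6% and 65.9% in premalignant and 60.0% and 71.0% in malignant libraries, higher in replicate 2 at every stage, so the split between the genes differed more within stages than between them. Both genes together gave 50.3% and 56.3% of all histone counts in wild type, 38.7% and 43.1% in premalignant and 47.3% and 40.9% in malignant libraries.

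The H2A replacement genes moved in different directions. H2afz and H2afv encode nearly identical forms of H2A.Z, a variant found around active promoters. H2afz had 282 and 223 CPM in wild type, 384 and 368 CPM in premalignant and 307 and 418 CPM in malignant libraries. Both later stages lay above wild type, with log2 fold changes of 0.57 (SE 0.20, FDR 0.0727, edgeR) and 0.52 (SE 0.20, FDR 0.0779, edgeR), each near the thresholds. Without wild type replicate 2 these were 0.42 and 0.36 and neither was called. Each call was also lost without either premalignant library, with values of 0.55 and 0.61 for the first and 0.53 and 0.53 for the second, the second was lost without malignant replicate 2 (0.31), and upper-quartile scaling ended both. In all, the second was lost under 9 of 13 alternatives and the first under 5.

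H2afv had 199 and 150 CPM in wild type, 149 and 151 CPM in premalignant and 85.2 and 81.3 CPM in malignant libraries. Both malignant libraries lay below all 4 others. H2afv fell in malignant vs. premalignant cells (log2 fold change -0.85, SE 0.17, FDR 0.0595, edgeR) and in malignant vs. wild type cells (-1.07, SE 0.17, FDR 0.00418, edgeR). The first call was lost without either premalignant library, as was that of every other gene, with values of -0.86 and -0.84 for H2afv. The second held under all 13 alternatives. Within each library, H2afv gave 41.4% and 40.3% of the counts of H2afv and H2afz in wild type, 28.01% and 29.1% in premalignant and 21.7% and 16.3% in malignant cells, with no overlap between stages. A ratio within a library does not depend on how libraries are scaled. An exact permutation test of 2 against 2 libraries cannot pass 0.05 and was not used.

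H2afj, a replacement H2A gene, had 50.5 and 44.3 CPM in wild type, 108 and 96.5 CPM in premalignant and 156 and 120.3 CPM in malignant libraries. Every premalignant library lay above every wild type library, and every malignant library above every premalignant one. It rose in premalignant vs. wild type (log2 fold change 1.11, SE 0.17, FDR 0.00722, edgeR) and malignant vs. wild type cells (1.54, SE 0.18, FDR 0.0016, edgeR), under all 13 alternatives, while the step from premalignant to malignant, 0.44, did not pass (FDR 0.231, edgeR).

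H2afx, whose mRNA can end either at a stem-loop or with a poly(A) tail, had 383 and 274 CPM in wild type, 402 and 410 CPM in premalignant and 256.3 and 237 CPM in malignant libraries. The malignant libraries were the lowest. The log2 fold change of -0.72 in malignant vs. premalignant cells did not pass (SE 0.19, FDR 0.11, edgeR), though it passed with DESeq2, upper-quartile scaling, both other filters and without either malignant library. Those of 0.30 in premalignant vs. wild type and -0.41 in malignant vs. wild type cells did not pass either. The first passed without wild type replicate 1 (0.57), and the second without wild type replicate 2 (-0.635), with upper-quartile scaling (-0.58) and with 10 counts per library (-0.50). H2afy, which encodes macroH2A, a variant with a large extra domain, had 546 and 534 CPM in wild type, 657 and 668 CPM in premalignant and 562 and 540.3 CPM in malignant libraries. Its libraries were close within stages, but 0.29 and -0.27 for the steps into and out of the premalignant stage did not pass (edgeR FDR 0.13 and 0.321).

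The second macroH2A gene, H2afy2, was near the floor, with 21 and 12 counts in wild type, 8 and 5 in premalignant and 1 and 0 in malignant libraries. Pooled over libraries, its level in malignant cells was 0.037 times that in wild type (95% interval 0.000909 to 0.221, counting error only), and it was called lower there (FDR 0.00821, edgeR). Reads near its Aifm2 overlap cannot be told apart without strand. H2afy3, an annotated pseudogene within Pvt1 near Myc, had 0 and 1 counts in wild type, 11 and 9 in premalignant and 12 and 18 in malignant libraries. It was called higher in both transgenic stages, with a pooled ratio to wild type of 21.6 (3.45 to 894) in premalignant and 36.6 (6.09 to 1490) in malignant cells. The first of these calls was lost without wild type replicate 1 (edgeR FDR 0.169) or either premalignant library (FDR 0.139 and 0.163), and reads from Pvt1 within it cannot be told apart from its own.

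H1f0 and H1fx, the linker replacement genes tested, were called lower than wild type in both transgenic stages. H1f0, which accumulates in cells that leave the cycle and is annotated as a pseudogene of 534 exon bases in vM1, had 34.3 and 44.4 CPM in wild type, 12.4 and 24.6 CPM in premalignant and 22.2 and 11.9 CPM in malignant libraries. It fell by 1.09 (FDR 0.0955) and by 1.20 (FDR 0.0602) on the log2 scale against wild type (edgeR). The first call was lost without any one of the 4 libraries compared, with values between -1.65 and -0.67. The second was lost without either wild type library (-1.38 and -1.004) or malignant replicate 2 (-0.80). H1fx had 6.15 and 4.93 CPM in wild type, 2.44 and 2.26 CPM in premalignant and 1.05 and 0.932 CPM in malignant libraries, a lower level at each stage without overlap. It overlaps exons of Gm5577 and held 74.1% assignable windows. The step from premalignant to malignant, -1.24, did not pass (FDR 0.115, edgeR), though it passed with DESeq2 and with both other filters. H1fx fell in premalignant vs. wild type (log2 fold change -1.24, SE 0.32, FDR 0.0315, edgeR) and malignant vs. wild type cells (-2.48, SE 0.34, FDR 0.00275, edgeR). The second call held under all 13 alternatives, and the first was lost without wild type replicate 1 (-1.06) or either premalignant library (-1.29 and -1.18). The genes H1foo and H1fnt, of the oocyte and the spermatid, and the pseudogene H2afb3-ps had at most 2 counts in any library and were not tested. Of the H3 pseudogenes, H3f3a-ps1, H3f3a-ps2 and H3f3c had between 0.114 and 1.30 CPM, held 45.7%, 18.0% and 26.2% assignable windows, and passed in no comparison.

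**Figure D2:**
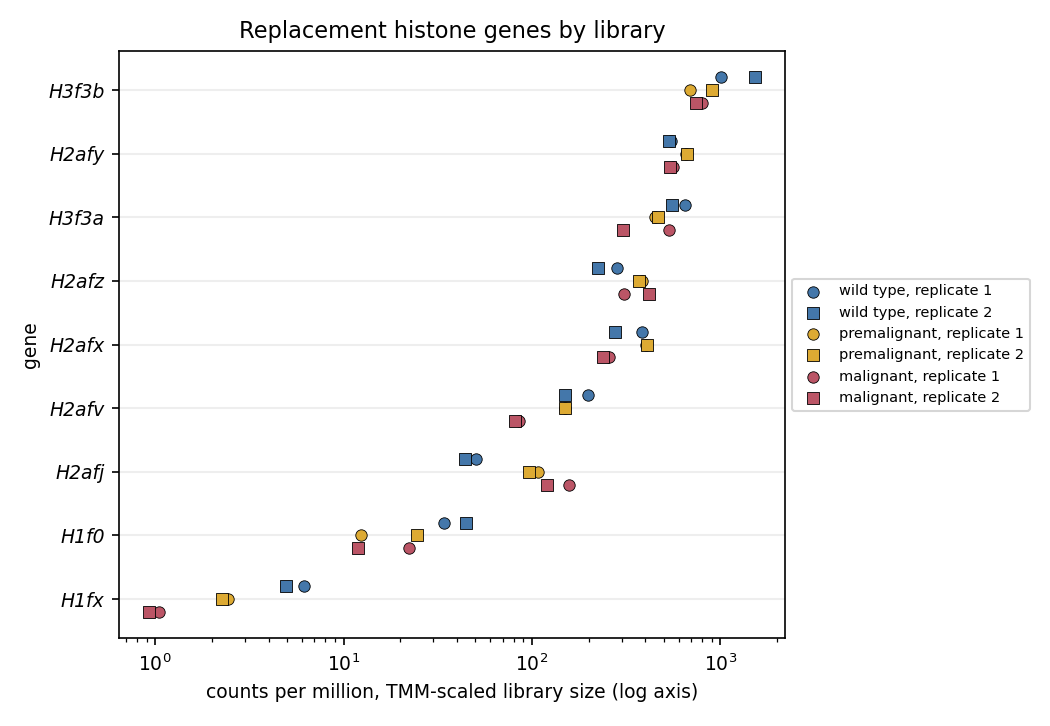
CPM on a logarithmic axis for the 9 replacement genes with a mean of at least 1 CPM, with 1 row per gene and 1 point per library (circles replicate 1, squares replicate 2). H2afj lies higher and H1fx lower at each stage, and H2afv is lowest in both malignant libraries at 85.2 and 81.3 CPM. Levels are not divided by gene length and should be compared along a row.

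In counts, 14 of the 19 replacement genes passed edgeR's filter on low counts. In premalignant vs. wild type cells 3 were called higher and 3 lower, 42.9% of those tested against 39.3% of all 16683 genes tested (3169 genes higher, and 3394 or 20.3% lower). In malignant vs. premalignant cells 1 was called lower, 7.14% against 6.18% of all genes, of which 3.73% were higher and 2.45% lower. None was called higher in that comparison, where 1 was higher at an unadjusted p under 0.05 and 0 by DESeq2. Against wild type, malignant cells had 3 called higher and 5 lower, 57.1% against 49.2% of all genes (24.9% higher and 24.3% lower). The share of replacement genes called was thus near that of all genes in each comparison. Without wild type replicate 2, premalignant replicate 1 or premalignant replicate 2, the count for premalignant vs. wild type was 3, 1 and 1, where 18.4%, 14.6% and 11.6% of all genes were called. For malignant vs. premalignant cells it was 4 without malignant replicate 1 or 2, where 15.6% and 21.1% of all genes were called, and 0 without either premalignant library, where 0% were.

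The clustered genes summed to a lower polyadenylated level in both transgenic stages, but 1 wild type library set much of the difference. Their summed CPM was 136.8 and 328 in wild type, 86.9 and 85.1 in premalignant and 98.5 and 99.9 in malignant libraries. Every later library lay below both wild type libraries. The mean was 233 ± 135 CPM (SD, n = 2) in wild type against 86.0 ± 1.25 and 99.2 ± 0.976 CPM. Wild type replicate 2 exceeded replicate 1 by more than 3-fold in 3 of the 58 histone genes with at least 20 counts in either, and these 3 were chosen after their values were seen. Hist1h1c, a linker H1 gene, had 25.1 and 179.5 CPM in the wild type libraries, Hist1h2bg 0.754 and 21.0 CPM, and Hist1h2ac 0.824 and 5.49 CPM. Without these 3 genes the clustered sum was 110.1 and 122 CPM in wild type, 76.2 and 70.9 CPM in premalignant and 77.7 and 87.1 CPM in malignant libraries, and the log2 difference between premalignant and wild type was -0.66 in place of -1.30. Leaving out wild type replicate 2 gave -0.67. The same library held more myeloid and erythroid marker RNA than the other wild type library (2803 against 1230.0 CPM and 1670.0 against 439 CPM), and the part of these cells in the 3 genes was not tested.

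**Figure D3:**
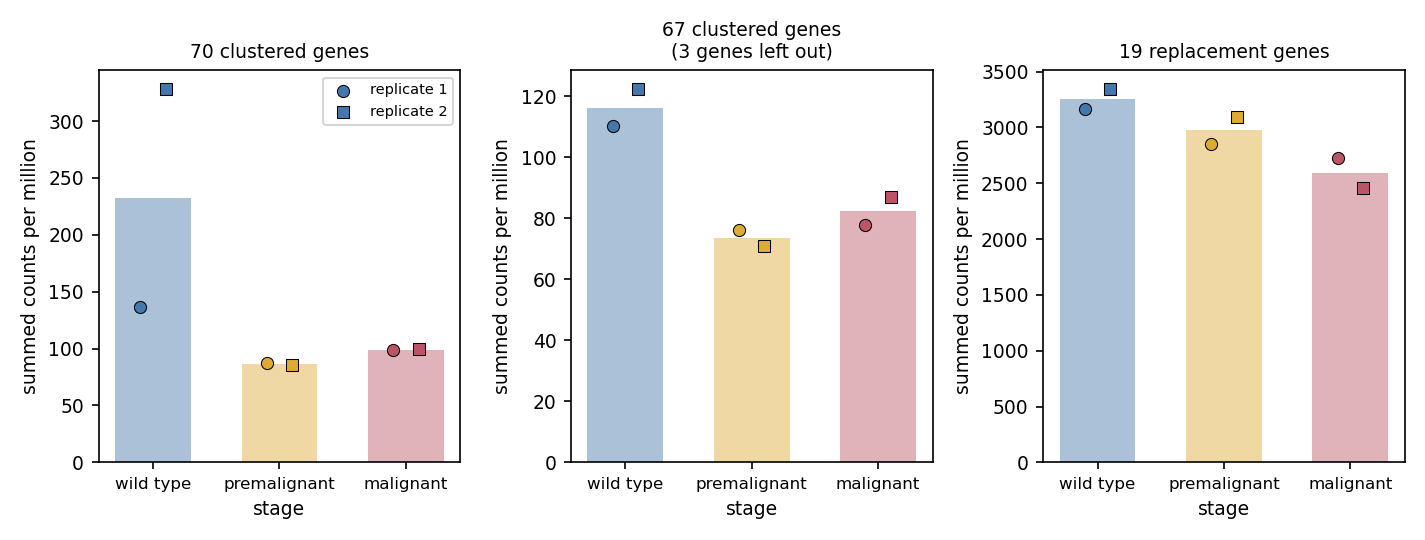
Summed CPM by stage for the 70 clustered genes, for 67 clustered genes without Hist1h1c, Hist1h2bg and Hist1h2ac, and for the 19 replacement genes; bars are means of 2 libraries and points are libraries. Wild type replicate 2 stands at 328 CPM in the first panel and at 122 CPM in the second, where both wild type libraries still lie above the other 4.

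The replacement genes summed to 3162 and 3344 CPM in wild type, 2854 and 3092 CPM in premalignant and 2729 and 2457 CPM in malignant libraries. The log2 differences were -0.13 for premalignant and -0.33 for malignant against wild type, with a pooled SD of 0.07 and 0.09, and the stages did not overlap. On total counts, without TMM, they were -0.34 and -0.624, and with upper-quartile scaling -0.216 and -0.496. By family, the replacement H2A genes summed to 1344 ± 166 CPM in wild type, 1696 ± 4.95 CPM in premalignant and 1382 ± 21.2 CPM in malignant cells (SD, n = 2), and the replacement H3 genes to 1865 ± 289, 1256 ± 165 and 1193 ± 207 CPM.

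Of the 70 clustered genes, 62 had a count and 56 were tested. In premalignant vs. wild type cells 0 were called higher and 15 lower by edgeR, 26.8% of those tested against 39.3% of all genes and 20.3% of all genes called lower. No clustered gene was higher at an unadjusted p under 0.05, and DESeq2 called 0 higher and 12 lower. The median log2 fold change of the 56 was -0.67, beside -0.08 over all genes tested, and 49 of the 56 lay below 0. The count rests on which libraries are used. It was 1 without wild type replicate 2, 0 without premalignant replicate 1 and 1 without premalignant replicate 2, where 18.4%, 14.6% and 11.6% of all genes were called.

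**Figure D4:**
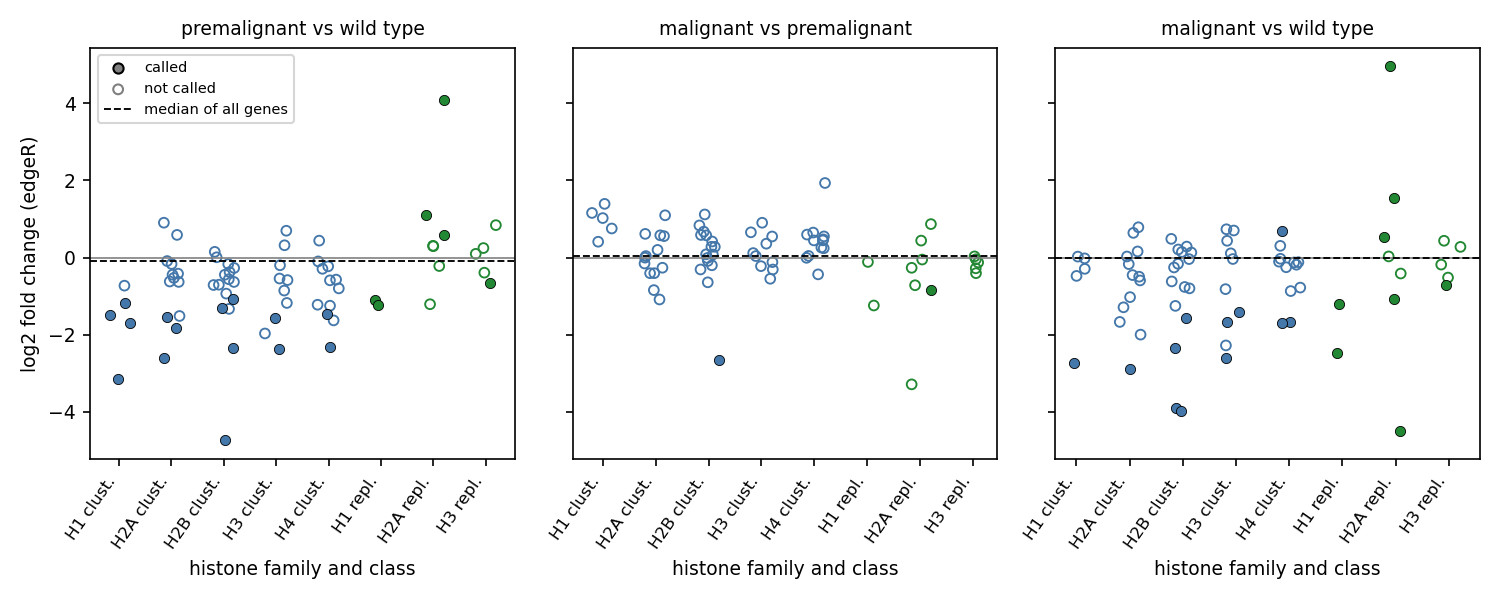
Log2 fold change by edgeR (vertical axis) of the 70 histone genes tested, by family and class, for the 3 comparisons. Filled points were called and open points were not, and the dashed line is the median of all 16683 genes. In premalignant vs. wild type cells 49 of 56 clustered genes lie below 0, and in malignant vs. premalignant cells 37 of 56 lie above 0.

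The clustered H1 genes encode the main linker histones of dividing cells, and 4 of the 5 tested were called lower in premalignant vs. wild type cells, where 20.3% of all genes were. Hist1h1c had 9.89 and 13.2 CPM in premalignant and 19.6 and 11.0 CPM in malignant libraries, all below both wild type libraries. Its log2 fold changes were -3.15 (SE 0.88, FDR 0.0391, edgeR) and -2.74 (SE 0.86, FDR 0.0431, edgeR), but -1.12 and -0.72 without wild type replicate 2, where neither was called. The first call was also lost without either premalignant library (-2.94 and -3.36), and the second without malignant replicate 2 (-2.35).

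Among the other H1 genes, wild type replicate 2 stood highest over replicate 1 for Hist1h1d, at 1.91 times its CPM, against 7.14 times for Hist1h1c. Hist1h1e had 2.23 and 2.92 CPM in wild type, 0.896 and 0.693 CPM in premalignant and 1.799 and 2.40 CPM in malignant libraries, so the premalignant libraries lay below all 4 others. Hist1h1d had 2.72 and 5.18, 1.54 and 1.24, and 2.24 and 3.44 CPM, and Hist1h1b had 2.73 and 3.26, 1.70 and 0.934, and 2.26 and 3.66 CPM in the same order. Premalignant libraries were the lowest in both. Hist1h1e fell in premalignant vs. wild type cells with a log2 fold change of -1.68 (SE 0.39, FDR 0.0222, edgeR), Hist1h1d with -1.50 (FDR 0.0509) and Hist1h1b with -1.18 (FDR 0.0933). All 3 calls were lost without wild type replicate 2 (-1.48, -0.96 and -1.05), premalignant replicate 1 (-1.88, -1.66 and -1.67) or premalignant replicate 2 (-1.51, -1.34 and -0.81), and that of Hist1h1b also without wild type replicate 1 (-1.29). Hist1h1a, with 2.00 and 1.81, 1.07 and 1.24, and 1.42 and 2.47 CPM, had -0.73 and was not called (FDR 0.216).

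From premalignant to malignant cells the log2 fold changes of Hist1h1e, Hist1h1b and Hist1h1d were 1.39, 1.16 and 1.02. None of the 5 tested clustered H1 genes was called there by edgeR (FDR 0.127, 0.228 and 0.282 for these), 2 were higher at an unadjusted p under 0.05, and DESeq2 called 1. Hist1h1t, the testis linker gene, had 3 reads in all and was not tested.

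Outside the H1 family, Hist3h2a and Hist3h2ba, which lie with a pseudogene in a small separate cluster on chromosome 11, had their lowest values at the malignant stage. Hist3h2a had 17.1 and 25.96 CPM in wild type, 4.99 and 7.26 CPM in premalignant and 3.47 and 2.26 CPM in malignant libraries. Hist3h2ba had 6.31 and 9.46 CPM, 2.73 and 3.62 CPM, and 0.460 and 0.538 CPM. Levels of both were lower at each later stage, without overlap.

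In malignant vs. wild type cells Hist3h2ba fell with a log2 fold change of -3.98 (SE 0.41, FDR 0.00122, edgeR) and Hist3h2a with -2.90 (SE 0.39, FDR 0.00254, edgeR), and both calls held under all 13 alternatives. Hist3h2ba also fell between premalignant and malignant cells, with -2.67 (SE 0.39, FDR 0.0315, edgeR), the only clustered gene called in that comparison. Without premalignant replicate 1 or 2 the value was -2.86 or -2.45 and was not called, nor was that of any other gene. Hist3h2a had -1.09 there and did not pass (FDR 0.181, edgeR). In premalignant vs. wild type cells Hist3h2a fell by 1.81 (FDR 0.0151) and Hist3h2ba by 1.31 (FDR 0.0369) by edgeR. These calls were lost without wild type replicate 2 (-1.48 and -0.99) or premalignant replicate 1 (-1.56 and -1.11), and that of Hist3h2ba also without premalignant replicate 2 (-1.52). The pseudogene Hist3h2bb-ps had at most 0.510 CPM and was called lower against wild type in both stages (log2 fold changes -2.35 and -2.36, FDR 0.0667 and 0.0572, edgeR) but not by DESeq2, and not without wild type replicate 2 (-1.62 in both) or either library of the later stage (-3.42 and -1.85 for premalignant, -2.24 and -2.41 for malignant cells). The 3 genes summed to 23.6 and 35.9 CPM in wild type, 7.81 and 10.9 CPM in premalignant and 4.00 and 2.87 CPM in malignant libraries. The summed myeloid, erythroid, plasma cell and B-lineage markers shared this order of stages. The part of any of these cell types in the Hist3 levels was not tested.

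Hist1h4i, an H4 gene, was the clustered gene called higher. It had 12.5 and 14.2 CPM in wild type, 19.7 and 16.5 CPM in premalignant and 19.7 and 23.0 CPM in malignant libraries. Both wild type libraries were below all others. It rose in malignant vs. wild type cells (log2 fold change 0.68, SE 0.21, FDR 0.0379, edgeR), which no other clustered gene did in any comparison, and 0.44 in premalignant vs. wild type cells did not pass (FDR 0.15, edgeR). The first value was 0.59 without wild type replicate 1 and 0.77 without wild type replicate 2, and was then not called. Per length it had the highest mean over all libraries among the clustered genes, with 27.9 RPKM in wild type, 32.7 RPKM in premalignant and 36.5 RPKM in malignant cells. In wild type alone Hist1h1c stood higher, at a mean of 73.95 RPKM. With it the 13 H4 genes summed to 20.5 ± 1.91, 21.8 ± 3.44 and 26.6 ± 3.37 CPM (SD, n = 2), while 10 of the 12 tested H4 genes had a log2 fold change below 0 against wild type in malignant cells.

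Of the clustered H2B genes, Hist2h2be had 30.9 and 18.6 CPM in wild type, 16.7 and 13.7 CPM in premalignant and 15.5 and 16.8 CPM in malignant libraries. Its log2 fold changes of -0.70 and -0.62 against wild type missed the threshold (FDR 0.104 and 0.122, edgeR), and both passed with DESeq2. Hist1h2bc had 6.85 and 7.67 CPM, 6.19 and 8.41 CPM, and 12.7 and 4.98 CPM in the same order, with malignant libraries on both sides of all others, and was not called. Hist1h2be fell in malignant vs. wild type cells (log2 fold change -1.58, FDR 0.0309, edgeR), with 2.30 and 2.24 CPM in wild type and 0.565 and 0.968 CPM in malignant libraries, and lost the call without either wild type library (-1.55 and -1.59, FDR 0.112 in each). Hist1h2bj ranged from 0.994 to 2.69 CPM over all 6 libraries without a call.

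Hist1h2bg and Hist1h2ac depended on wild type replicate 2. In the other 5 libraries Hist1h2bg lay between 0.362 and 0.754 CPM and Hist1h2ac between 0.400 and 1.11 CPM. Their log2 fold changes in premalignant vs. wild type cells were -4.74 (FDR 0.0485) and -2.61 (FDR 0.0817) by edgeR, and -0.90 (FDR 0.311) and -0.68 (FDR 0.57) without that library. The value for Hist1h2bg in malignant vs. wild type cells was -3.91 (FDR 0.0593) and -0.07 without it (edgeR). Each of these calls was also lost without either library of the later stage, with values of -4.88 and -4.60 for Hist1h2bg and -2.30 and -2.95 for Hist1h2ac in premalignant vs. wild type cells, and -3.97 and -3.80 for Hist1h2bg in malignant vs. wild type cells.

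The clustered H3 genes were low. Hist1h3g, the highest of them by CPM, had 0.736 and 0.878 CPM in wild type, 1.32 and 1.30 CPM in premalignant and 1.05 and 1.65 CPM in malignant libraries and was not called. Hist2h3c2, an annotated pseudogene, had 0.508 and 0.765, 0.0953 and 0.151, and 0.126 and 0.0717 CPM, and was called lower than wild type in both stages (log2 fold changes -2.37, FDR 0.0267, and -2.59, FDR 0.0155, edgeR). The first call was lost without wild type replicate 2 (-2.05) or either premalignant library (-2.04 and -2.69). Clustered genes gave only 0.318 to 0.660% of all H3 counts in any library, and the clustered share of H2A counts was 1.53% and 3.02% in wild type, 0.586% and 0.711% in premalignant and 0.568% and 0.645% in malignant libraries. For H1 it was far larger, between 39.2% and 79.6%.

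**Figure D5:**
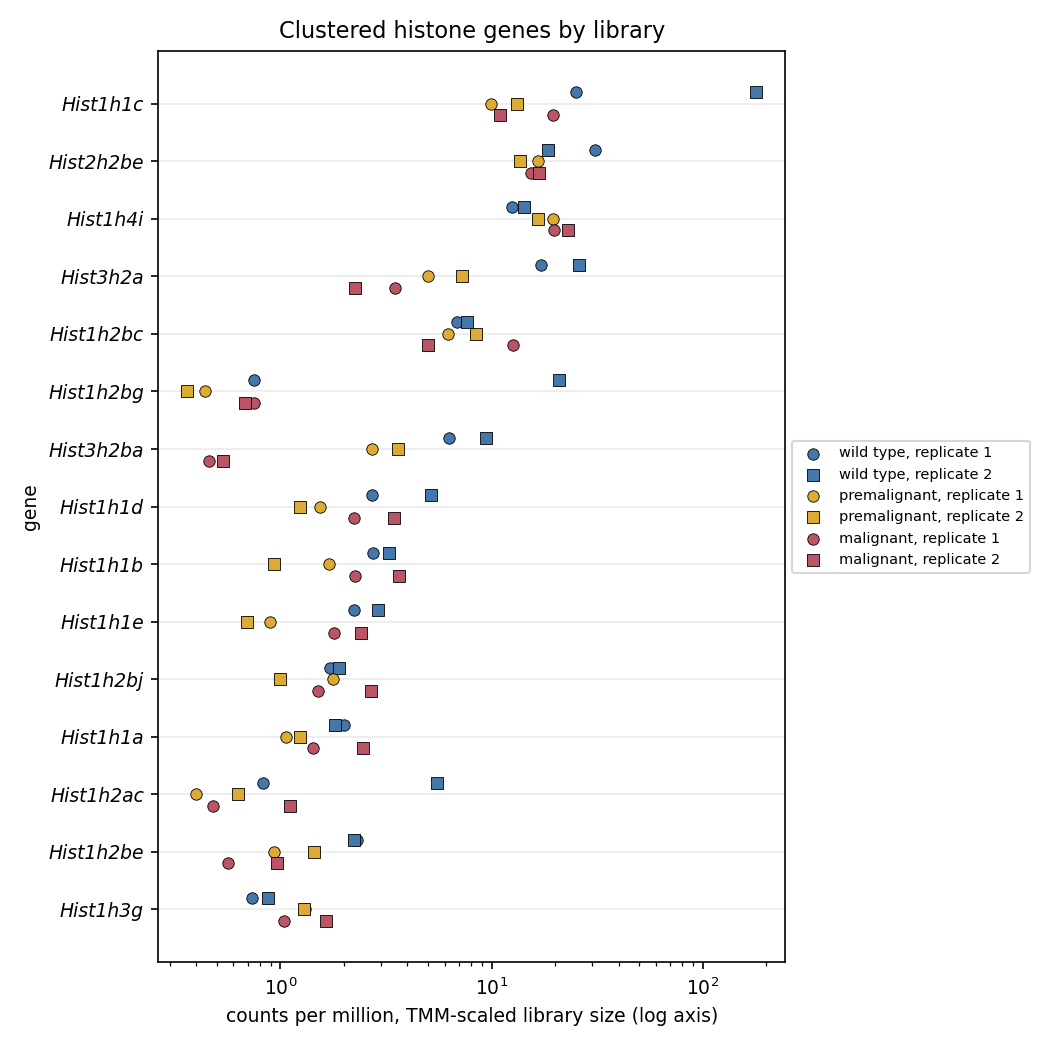
CPM on a logarithmic axis for the 15 clustered genes with the highest mean, with 1 row per gene and 1 point per library (circles replicate 1, squares replicate 2). Wild type replicate 2 stands apart for Hist1h1c, Hist1h2bg and Hist1h2ac, and both malignant libraries are lowest for Hist3h2a and Hist3h2ba. Levels are not divided by gene length and should be compared along a row.

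From premalignant to malignant cells few clustered genes were called. By edgeR 0 were higher and 1 lower of 56, 1.79% against 6.18% of all genes. At an unadjusted p under 0.05, 3 were higher and 2 lower, and DESeq2 called 1 higher and 2 lower. The median log2 fold change was 0.27, beside 0.04 over all genes. The count was 4 without malignant replicate 1, 2 without malignant replicate 2 and 0 without either premalignant library, where 15.6%, 21.1%, 0% and 0% of all genes were called. In malignant vs. wild type cells 1 was higher and 11 lower by edgeR, 21.4% against 49.2% of all genes, with a median of -0.28 beside -0.02, and the count was 4 without wild type replicate 2, where 33.3% of all genes were called.

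Extended and short clustered genes are set side by side, and the difference between them was not tested. In premalignant vs. wild type cells 8 of 20 tested extended genes and 5 of 33 tested short genes were called, all lower, 40.0% and 15.2% against 39.3% of all genes called and 20.3% called lower, and the medians were -0.82 and -0.62. Of 20 extended genes, 8 were called in malignant vs. wild type cells, 7 lower and 1 higher, and of 33 short genes 2, both lower, 40.0% and 6.06% against 49.2% of all genes, with medians of -0.95 and -0.13. Short genes had at most 2.42 CPM on average against 43.1 CPM for extended genes, and the part of depth in these counts was not tested. Short genes summed to 26.4 ± 3.22 CPM in wild type, 16.4 ± 2.83 CPM in premalignant and 23.4 ± 7.0 CPM in malignant cells (SD, n = 2).

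Genes that make, process and carry histones were read beside the histone genes. Of 24 genes for transcription and 3′ processing of stem-loop histone mRNA, 10 were called higher and 0 lower in premalignant vs. wild type cells, 41.7% against 39.3% of all genes, with a median log2 fold change of 0.51 (0 lower at an unadjusted p under 0.05 and by DESeq2). In malignant vs. wild type cells 9 were higher and 0 lower, 37.5% against 49.2% of all genes (0 lower also at an unadjusted p under 0.05 and by DESeq2). Lsm11, a subunit of the U7 particle that cuts the mRNA, had 17.5 and 13.9 CPM in wild type, 32.9 and 29.0 CPM in premalignant and 38.6 and 33.6 CPM in malignant libraries. It rose in both stages, with log2 fold changes of 0.98 (FDR 0.0136) and 1.20 (FDR 0.00465) by edgeR, the first lost without premalignant replicate 1 (0.89).

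Slbp, the stem-loop binding protein, had 212 and 135 CPM in wild type, 275 and 268 CPM in premalignant and 179 and 198 CPM in malignant libraries. It rose in premalignant vs. wild type cells (0.65, FDR 0.0708, edgeR), but not without wild type replicate 2 (0.36) or either premalignant library (0.63 and 0.67), and -0.53 in malignant vs. premalignant cells did not pass. Casp8ap2, a factor of the histone loci, had 83.3 and 60.03, 116 and 117, and 94.3 and 97.9 CPM and rose in premalignant vs. wild type cells (0.70, FDR 0.0298, edgeR), with 0.49 without wild type replicate 2 and no call without either premalignant library (0.72 and 0.70). Npat, the coactivator of clustered histone genes, had 59.4 and 43.4, 75.6 and 69.9, and 62.8 and 65.6 CPM, and its log2 fold change of 0.499 in premalignant vs. wild type cells lay just under the fold threshold (FDR 0.0812, edgeR) and just over it with DESeq2 (0.506). Lsm10, the partner of Lsm11, stayed between 6.94 and 9.94 CPM in all 6 libraries and was not called.

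Of 28 genes for histone chaperones and assembly, 15 were called higher and 0 lower in premalignant vs. wild type cells and 13 and 0 in malignant vs. wild type cells, 53.6% and 46.4% of the list against 39.3% and 49.2% of all genes (none was lower at an unadjusted p under 0.05 or by DESeq2 in either). Nasp, an H1 and H3 chaperone, had 164 and 125 CPM in wild type, 309.6 and 325 CPM in premalignant and 276 and 248 CPM in malignant libraries, and rose by 1.14 (FDR 0.00641) and 0.86 (FDR 0.00952) on the log2 scale (edgeR), under all 13 alternatives. Chaf1a and Chaf1b, subunits of the replication chaperone CAF-1, rose as well. Chaf1a changed by 1.07 and 0.88 (FDR 0.0156 and 0.0199) and Chaf1b by 0.84 and 0.93 (FDR 0.0229 and 0.0112) by edgeR. For Chaf1a the calls were lost without premalignant replicate 2 (1.06) and without wild type replicate 2 (0.695), respectively, and for Chaf1b the first was lost without wild type replicate 2 (0.71) or either premalignant library (0.89 and 0.79).

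Hira, of the replacement H3 chaperone, had 121 and 124 CPM in wild type, 176 and 196 CPM in premalignant and 169 and 215 CPM in malignant libraries, and rose by 0.60 (FDR 0.033) and 0.65 (FDR 0.019) on the log2 scale (edgeR). The first call was lost without any 1 of the 4 libraries compared (0.53 to 0.68) and the second without malignant replicate 2 (0.49) or with upper-quartile scaling (0.48). Atrx, Daxx, Asf1a, Asf1b and Anp32e, which handle replacement H3, newly made H3 and H4, and H2A.Z, were called in no comparison by edgeR with all libraries. Asf1b, at 0.545 in premalignant vs. wild type cells (FDR 0.136, edgeR), was called higher under 6 of 13 alternatives, with 0.98 without wild type replicate 1. Atrx lay between 335 and 471 CPM and Daxx between 69.97 and 86.8 CPM.

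Of 22 S-phase genes, among them the replicative helicase and nucleotide synthesis, 16 were called higher and 0 lower in premalignant vs. wild type cells, 72.7% against 39.3% of all genes (0 lower also at an unadjusted p under 0.05 and by DESeq2), with a median log2 fold change of 0.93. In malignant vs. wild type cells 15 were higher and 1 lower, 72.7% against 49.2% of all genes, with a median of 0.79. These medians stand beside those of the clustered histone genes, -0.67 and -0.28. Between premalignant and malignant cells 1 S-phase gene was higher and 1 lower, 9.09% against 6.18% of all genes. The processing, chaperone and S-phase counts in premalignant vs. wild type cells depended on which libraries were used, and so did the share of all genes called. In malignant vs. premalignant cells 0 chaperone genes were called with all libraries. At an unadjusted p under 0.05, 0 of them were higher and 1 lower, and as many by DESeq2.

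RNAs that mostly lack a poly(A) tail were summed with carry-over of such RNA into the libraries in mind. Whether these sums measure carry-over was not tested. Genes annotated as snRNA summed to 40.1 and 50.3 CPM in wild type, 31.04 and 23.2 CPM in premalignant and 28.7 and 24.5 CPM in malignant libraries, below wild type in both later stages. Genes annotated as snoRNA summed to 107 and 125 CPM, 239 and 190 CPM, and 319 and 244 CPM, above wild type in both later stages. The 2 classes thus lay on opposite sides of wild type, and the part of carry-over in the clustered histone levels was not tested.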

How the data were processed

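Polyadenylated RNA of 6 pre-B cell libraries was prepared with an unstranded kit and sequenced as 50-base single reads. The authors aligned the reads with TopHat to mm9, counted them per gene with HTSeq and deposited raw counts without normalization. Labels also name CASAVA 1.8.2, Bowtie and DESeq. The HTSeq options and annotation are not given in the sources used here. The authors' DESeq tables, which hold means, fold changes and p-values, were not used here.

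Symbols, coordinates and sequences come from GENCODE vM1 and NCBIM37, with a symbol for 37205 of 37991 identifiers. Counts of all genes were fitted with edgeR 4.0.16 (R 4.3.3, quasi-likelihood test, TMM, default filter, stage only, all libraries). The study's thresholds were used, an FDR (Benjamini-Hochberg) up to 0.1 and a log2 fold change from 0.5 in either direction. CPM was computed on TMM sizes and RPKM on total counts and exon lengths. Alternatives were DESeq2 1.42.0, upper-quartile scaling, no filter, a filter of 10 counts per library, a block on replicate number, fits of 2 stages, other thresholds and leaving out each library. The fits were run on simulated data with 200 genes changed at the malignant stage only. That is far fewer than were called against wild type here, so the run does not show how the fits behave under such broad change.

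Named were every replacement gene with a count, the 15 clustered genes of highest mean CPM, the 5 largest rises and falls called per comparison, Myc and genes of processing and chaperones. Members and lists were chosen with earlier results of these data known.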

Additional observations from a re-analysis of the deposited data

How the results depend on the processing

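Of 935 alternative values for 73 values of named genes, 757 kept their side of the thresholds, 115 lost it, 63 gained it and 0 changed direction. For clustered genes, the count called at an FDR of 0.05 was 7 in premalignant and 7 in malignant cells against wild type, and between these stages it was 3 by DESeq2, 4 without a filter and 2 with 10 counts in every library. For replacement genes it was 3 at an FDR of 0.05 in premalignant vs. wild type cells. In malignant vs. premalignant cells it was 3 by DESeq2, without a filter and with 10 counts, 2 with upper-quartile scaling, and 0 at an FDR of 0.05 and at a log2 fold change of 1. In malignant vs. wild type cells it was 5 with 2 stages in the fit and at an FDR of 0.05. Processing genes gave 17 with 2 stages in the fit and 1 at a log2 fold change of 1 in premalignant vs. wild type cells, 1 without a filter in malignant vs. premalignant and 3 at a log2 fold change of 1 in malignant vs. wild type cells. Chaperones gave 8 and 7 at a log2 fold change of 1 against wild type, and 1 in malignant vs. premalignant cells by DESeq2, upper-quartile scaling and either other filter. S-phase genes gave 8 and 7 at that fold against wild type, and 0 in malignant vs. premalignant cells with 2 stages in the fit and under either stricter threshold. Of all genes, 6.18% were called in malignant vs. premalignant cells in the main fit. The share was 14.3% by DESeq2, 10.6% without a filter, 8.0% with 10 counts and 5.87% with upper-quartile scaling. With 2 stages in the fit it was 1.66% there. Against wild type, such fits called 50.5% of all genes in premalignant and 43.8% in malignant cells. Shares of all genes at the stricter thresholds are not given here. The cause of the changes in counts was not tested.

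The clustered sum without Hist1h1c, Hist1h2bg and Hist1h2ac, an alternative chosen after seeing the data as were those for the gene lists, differed by -0.66 between premalignant and wild type cells and by 0.162 between malignant and premalignant cells, and the latter was 0.12 on total counts, 0.124 with upper-quartile scaling and 0.186 with DESeq2 size factors. The replacement sum differed by -0.34 and -0.216 on total counts and upper quartiles in premalignant vs. wild type and by -0.624 and -0.496 in malignant vs. wild type cells. Upper-quartile scaling shifted the median of all genes by -0.167 in malignant vs. wild type cells.

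Without 1 library at a time, and with the comparisons in the order premalignant vs. wild type, malignant vs. premalignant and malignant vs. wild type, counts ranged from 0 to 21, 0 to 4 and 4 to 12 (clustered), 1 to 6, 0 to 4 and 6 to 9 (replacement), 2 to 17, 0 to 0 and 6 to 12 (processing), 7 to 17, 0 to 3 and 10 to 15 (chaperones) and 6 to 18, 0 to 2 and 12 to 20 (S phase). Sums ranged from -1.932 to -0.67, 0.19 to 0.22 and -1.727 to -0.465 (clustered) and from -0.188 to -0.073, -0.274 to -0.123 and -0.404 to -0.253 (replacement). Of all genes, 11.6% to 48.5%, 0% to 21.1% and 33.3% to 52.2% were called in these fits, in the same order. The ranges of counts are thus not a property of the histone lists alone. A stage left with 1 library was assumed to vary like the others.

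The labels link replicates across stages by number alone. Total counts were higher in replicate 1 of every stage. Whether replicates that carry the same number shared a batch was not tested. Their deviations correlated at 0.509, 0.257 and 0.186. With the replicate block, counts were 15, 1 and 11 (clustered), 5, 1 and 7 (replacement), 12, 0 and 9 (processing), 16, 0 and 13 (chaperones) and 16, 2 and 16 (S phase). Of all genes, 39.4%, 5.63% and 49.3% were called in these fits, in the same order. The block ended the calls of H1f0 and Hist1h1b in premalignant vs. wild type and of H2afz and Hist1h2bg in malignant vs. wild type cells, and gained those of Npat (0.509) and Asf1b (0.58) in premalignant vs. wild type cells. Depth limits genes near 3 counts, such as H2afy2 and H2afy3, whose intervals span more than 10-fold.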
